A study of Mus musculus with 6 samples.

Results

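The abundant antisense genes of the mouse testis are the 140 genes that the deposited table classes as antisense, under its own annotation release, and that reached a mean of at least 10 CPM over 6 libraries. CPM is a gene's count divided by the library total and scaled to a library of fixed size. They were 4.95% of the 2826 antisense genes in a table of 54532 genes. Another release may class genes differently and so change who is counted. Of all antisense genes, 2052 had a count in some library and 239 had a mean of at least 5 CPM. Each abundant antisense gene was paired with every protein-coding gene on the opposite strand whose span, from the deposited gene start to the gene end, overlapped its own. This gave 141 pairs for 126 of the 140 genes, with 140 different coding partners, and 14 genes had no partner. The genes were chosen by their mean CPM, so their levels are described without a test. That mean does not use the comparison of genotypes, but this class of genes was chosen with earlier results of these data known. The genes just inside the limit were Gm14285, Gm11149 and 1700105P06Rik with means of 10.07, 10.06 and 10.04 CPM, and those just outside were Gm16322, Gm11657 and Gm13201 with 9.90, 9.79 and 9.79 CPM.

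The libraries came from whole testis of wild-type mice (WT, 3 libraries) and of mice lacking the testis long non-coding RNA gene 1700052I22Rik (KO, 3 libraries), and the study asked what that gene does in spermatogenesis. The sources used here do not give strain, age or the design of the knockout allele. Nor do they say that each library is a different animal, and a p-value therefore measures only how far these libraries spread, which may be technical. Totals ran from 17635045 to 18117593 counts per library. The knocked-out gene (chr12:80923432-80924449) had 185, 175 and 218 counts in the WT libraries and 0 in each KO library, where counting error alone would leave room for 3 counts over the 3 libraries. All 10 spermatid markers of the list used were detected, and their summed level was 15120 to 18360 CPM per library, whereas the 8 epididymis markers summed to 3.65 to 4.76 CPM. Most of that was Rnase10, at 3.40 to 4.68 CPM per library, while Lcn5, Lcn8 and Spint4 were at 0. In whole tissue, fewer cells of a type and less RNA per cell cannot be told apart.

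An antisense transcript is made from the strand opposite a gene and runs across some or all of it. Such RNAs are known in single cases to act on transcription from the locus they cross, to pair with the sense RNA into duplexes, or to be by-products of a shared promoter. The testis is known for an unusually broad transcription of non-coding genes, much of it in meiotic and post-meiotic germ cells.

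Sequences show how closely antisense and coding genes meet at the loci described below. The first 4 are stretches upstream of a coding gene, read from the RefSeq table (GRCm38.p6), 5′ to 3′ on the coding strand and ending at the coding gene's first base. Capitals run from a first base of the antisense gene, which is transcribed leftward from there, to the first base of the coding gene. For Tnp1 this is a RefSeq start at 73016036, whereas the deposited span of 1700027A15Rik starts at 72984844, on the other side of Tnp1. A transcript from that RefSeq start runs away from Tnp1 and does not hold the exon over Tnp1 printed below.
Tnp1 (chr1:73015899-73016149, minus strand; capitals from a RefSeq start of 1700027A15Rik, 137 bases away): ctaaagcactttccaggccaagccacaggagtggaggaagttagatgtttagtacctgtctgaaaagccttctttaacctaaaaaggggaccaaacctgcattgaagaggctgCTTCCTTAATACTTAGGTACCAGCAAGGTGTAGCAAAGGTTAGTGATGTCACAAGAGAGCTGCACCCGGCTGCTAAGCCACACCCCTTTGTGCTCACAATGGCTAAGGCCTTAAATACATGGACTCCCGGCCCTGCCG
Med9 (chr11:59947964-59948214, plus strand; capitals from the start of Med9os, 72 bases away): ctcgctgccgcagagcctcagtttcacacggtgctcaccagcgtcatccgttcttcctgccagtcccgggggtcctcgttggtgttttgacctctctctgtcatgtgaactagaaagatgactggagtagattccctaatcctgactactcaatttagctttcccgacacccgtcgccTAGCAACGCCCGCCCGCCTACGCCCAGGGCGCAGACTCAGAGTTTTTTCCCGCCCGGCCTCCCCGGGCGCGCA
Saxo1 (chr4:86558303-86558553, minus strand; capitals from the start of Saxo1os, 143 bases away): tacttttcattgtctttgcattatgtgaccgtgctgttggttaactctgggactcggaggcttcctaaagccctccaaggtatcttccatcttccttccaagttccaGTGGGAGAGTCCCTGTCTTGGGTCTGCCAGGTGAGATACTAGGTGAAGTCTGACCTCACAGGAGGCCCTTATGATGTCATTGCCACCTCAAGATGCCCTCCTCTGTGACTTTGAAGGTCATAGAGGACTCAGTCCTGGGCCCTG
Spaca3 (chr11:80858113-80858363, plus strand; capitals from the start of 4930507D10Rik, 63 bases away): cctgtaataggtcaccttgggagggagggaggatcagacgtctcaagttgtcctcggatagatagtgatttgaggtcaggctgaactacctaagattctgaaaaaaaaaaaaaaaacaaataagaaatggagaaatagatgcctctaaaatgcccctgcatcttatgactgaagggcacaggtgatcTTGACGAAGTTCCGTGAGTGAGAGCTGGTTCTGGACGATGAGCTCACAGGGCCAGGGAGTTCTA
The other two are parts of antisense exons in GENCODE M21 (GRCm38), on the antisense strand, with capitals where the exon lies over coding sequence of the partner. They are shown because Tnp1 is the most abundant partner and Hmga2 one of the least abundant.
1700027A15Rik over Tnp1 (chr1:73015691-73015764, plus strand, 40 bases over coding sequence): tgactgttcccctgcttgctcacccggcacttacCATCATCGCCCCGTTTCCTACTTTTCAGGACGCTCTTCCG
1700006J14Rik over Hmga2 (chr10:120364255-120364296, plus strand, 42 bases over coding sequence): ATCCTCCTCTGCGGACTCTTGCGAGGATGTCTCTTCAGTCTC

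The 140 genes were mixed in name, length and place. Of their symbols, 70 were cDNA-clone names ending in Rik, against 509 of all 2826 antisense genes (18.01%). A further 45 were Gm gene models and 20 carried the suffix os for opposite strand. Their median deposited length was 1477 bases, against 905 for all antisense genes, and the limit of 10 CPM is not divided by length, which favours longer genes. They lay on 18 chromosomes, with 14 on chromosome 4. None of the 45 antisense genes on X reached 10 CPM, and the highest there, 1700111N16Rik, had 1.62 CPM. X held 1.59% of all antisense genes and 241 of the 9239 coding genes that reached 10 CPM.

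The pairs overlapped in 4 layouts, given beside their share among all antisense and coding pairs of the table. In 62 of 141 pairs (44.0%) the antisense gene lay wholly inside the coding gene, against 55.6% of all 2943 pairs. Another 48 (34.0%) overlapped head-to-head, meaning with their starts facing each other, against 24.4%. Tail-to-tail overlap was found in 24 (17.0%, against 15.4%), and in 7 (4.96%, against 4.62%) the coding gene lay inside the antisense gene. The starts of the head-to-head pairs were a median of 718 bases apart, 32 of 48 (66.7%) within 1 kb, against 56.0% of all head-to-head pairs. In 8 pairs they were within 200 bases. These included Gm42918 and Trafd1, a regulator of innate immune signalling, 110 bases apart; 4930518J20Rik and Tdrd5, a germline protein that silences retrotransposons, 175 bases apart; and Gm37912 and D1Pas1, a testis-expressed RNA helicase, 187 bases apart.

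Of the 14 genes with no overlapping partner, several started just upstream of a coding gene on the other strand. Med9os began 64 bases from Med9, a Mediator subunit, and had 38.9 CPM against 89.9 for Med9. Saxo1os began 118 bases from Saxo1, which encodes a protein of the axonemal microtubules, with 27.6 against 70.8 CPM. Arl4aos began 74 bases from Arl4a, a small GTPase gene, with 15.7 against 449 CPM. 4930507D10Rik began 65 bases from Spaca3, a sperm acrosome protein, with 12.0 against 111 CPM. 4930592C13Rik, 2810001G20Rik and Gm43403 began 70, 16 and 113 bases from the splicing-factor gene Zranb2, the heme-synthesis gene Cox10 and the histone H2A.Z gene H2afz. These distances use deposited starts for both genes, whereas those beside the sequences use RefSeq starts of the coding genes. In each of these 7 cases the coding gene had the higher level in CPM.

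How reads were assigned where 2 genes share bases limits every value for overlapping pairs, because the sources used here name neither the counting tool nor its strand setting. Of 2811 antisense genes found in GENCODE M21, 76 had exons wholly covered by exons of other genes on either strand. Of these, 73 were at 0 counts in all 6 libraries, the highest mean being 0.0185 CPM. Between 90% and 100% covered, 38 of 42 were at 0. With no shared base, 315 of 1141 (27.6%) were at 0. Among the abundant genes the largest covered share was 59.0%, in A730035I17Rik opposite Prdm8, the median was 5.83%, and 51 shared none. Of 138 pairs with both genes in that annotation, 93 overlapped in exons, 57 of these over coding sequence, and 45 only through introns. With the strand setting not named, it is not known whether reads of a gene and its antisense partner were told apart by strand.

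**Figure D1:**
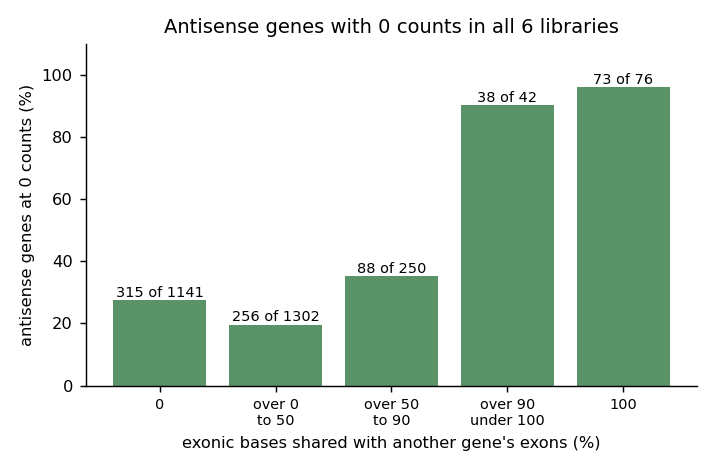
Share of antisense genes with 0 counts in all 6 libraries (y axis, %, bars from 0) by the percent of their exonic bases that exons of another gene, on either strand, cover (x axis), with the number of genes above each bar. Where cover was complete, 73 of 76 were at 0, against 315 of 1141 with no cover.

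The abundant antisense genes held 0.440% to 0.470% of all counts and 69.8% to 71.0% of antisense counts in each library. Their summed level was 4613, 4532 and 4399 CPM in WT 1 to 3 and 4701, 4415 and 4598 CPM in KO 1 to 3. The genotypes overlapped through WT 1 and KO 2, while WT 2 and WT 3 were below KO 1 and KO 3. The median gene had 19.6 CPM, 69 had at least 20 CPM and 8 at least 100 CPM. Values per library from here on are CPM normalised by TMM, a scaling for library composition, and errors are SDs over 3 libraries.

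The gene with the highest level was Wbscr25 (chr5:134987433-135001350, minus strand), whose tail overlaps that of Cldn3, a tight-junction claudin, with 286, 249 and 268 CPM in WT libraries and 261, 274 and 266 in KO. It was followed by 1700027A15Rik (chr1:72984844-73025507, plus strand), whose span contains Tnp1, with 218, 186 and 172 CPM in WT libraries and 177, 141 and 159 in KO. Tnp1 encodes transition protein 1, which replaces histones in spermatid chromatin before the protamines. Gm11837 (chr4:14929908-14953030, plus strand) had 185, 174 and 159 CPM in WT libraries and 186, 168 and 174 in KO. Its tail overlaps Necab1, a neuronal calcium-binding protein gene, and 40.5% of its exonic bases are covered by other exons. 1700018L02Rik (chr19:29046245-29048729, plus strand) starts within the mitochondrial adenylate kinase gene Ak3 and had 125, 124 and 114 CPM in WT libraries and 135, 133 and 125 in KO. 1700006J14Rik (chr10:120364157-120384336, plus strand), inside the gene for the chromatin protein Hmga2, had 124, 125 and 122 CPM in WT libraries and 128, 125 and 126 in KO. Its 6 values had the smallest spread of all 140 genes, a coefficient of variation of 1.499%. 4930589P08Rik, in an intron of the transcription factor gene Camta1, had 112, 111 and 103 CPM in WT libraries and 116, 103 and 118 in KO. 4930488L21Rik, opposite the G-protein subunit gene Gnao1, had 104, 94.2 and 113 in WT and 110.2, 113 and 108 in KO. Gm42918, opposite Trafd1, had 113, 105 and 98.3 in WT and 110.4, 106 and 104 in KO. In these 8 genes the ranges of WT and KO overlapped.

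Hoxd3os1 (chr2:74703248-74716130, minus strand) crosses part of the HoxD cluster, genes that pattern the body axis, and had 92.5, 91.7 and 92.0 CPM in WT libraries and 93.3, 100.5 and 96.5 in KO. 4930518J20Rik (chr1:156303489-156304966, plus strand), head-to-head with Tdrd5, had 81.8, 82.5 and 79.8 CPM in WT libraries and 90.8, 82.8 and 85.7 in KO. In these 2 genes every KO value was above every WT value, by a small step: their log2 fold changes were 0.072 ± 0.0766 (SE) and 0.087 ± 0.0791 (SE), with unadjusted p of 0.364 and 0.290. Just below them in level was Tug1, a conserved long non-coding RNA that the deposited table classes as antisense, with 79.9, 72.7 and 71.3 CPM in WT libraries and 72.4, 80.2 and 86.9 in KO. Neighbours in the order of level were often within their spread: ranks 6 to 8 (4930589P08Rik, 4930488L21Rik and Gm42918) had means of 110.2, 107 and 106 CPM and overlapping values. Over all 140 genes the median coefficient of variation across the 6 libraries was 9.90%, and the largest, 29.9%, was that of Gm15873 with 8.32, 16.3 and 10.9 CPM in WT libraries and 16.5, 8.57 and 14.5 in KO.

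**Figure D2:**
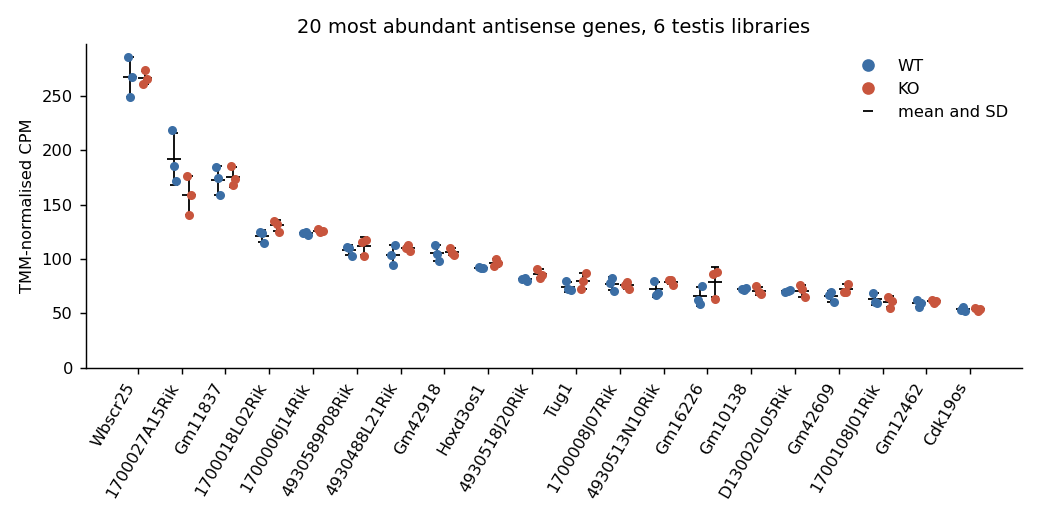
TMM-normalised CPM (y axis, from 0) of the 20 antisense genes with the highest mean (x axis) in each WT and KO library (points), with the mean and SD of 3 libraries. Wbscr25 lay between 249 and 286 CPM in the 6 libraries, and the WT and KO points of most genes overlapped.

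The limit of 10 CPM was set on the antisense gene and not on its partner. That favours the antisense gene in any comparison of their levels, and a limit of 20 CPM gave a higher share (77.9%). Per kb of deposited gene length, the antisense gene was above its coding partner in 92 of 141 pairs (65.2%). The direction depends on length, since in CPM alone it was above in 62 pairs (44.0%). With the same CPM divided by only the bases that no other exon covers, it was above in 94 of 137 pairs (68.6%). That changes the length alone and does not take out reads from shared bases. By layout, the antisense gene was above its partner per kb in 42 of 62 pairs where it lay inside the coding gene, in 20 of 24 tail-to-tail pairs, in 5 of 7 pairs where it contained the coding gene and in 25 of 48 head-to-head pairs. Partners of head-to-head pairs had the highest median level, 57.9 CPM, and those of tail-to-tail pairs the lowest, 12.3 CPM. Across the 141 pairs the levels per kb of the 2 genes had a Spearman rho of −0.012, a description over pairs that share libraries.

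The coding partners ranged from silent to among the abundant testis genes. Their median was 31.7 CPM, 32 of 140 had at least 100 CPM and 10 had under 1 CPM. Beside Hoxd3os1 at 94.2 CPM, Hoxd3 had 0, 0 and 1 counts in WT and 2, 0 and 0 in KO, Hoxd4 had 0 in every library, and Hoxd8, which lies within the span, had 57.7 CPM. Opposite Gm11837, Necab1 had 12, 3 and 2 counts in WT and 9, 9 and 3 in KO, which put the antisense gene 2546-fold higher per kb. Opposite 1700006J14Rik, Hmga2 had 8, 7 and 9 counts in WT and 11, 5 and 12 in KO, a 607-fold difference per kb. Nearly all counts of these 2 pairs were assigned to the antisense gene. 1700008J07Rik, head-to-head with the chromatin remodeller gene Srcap, was 314-fold above it per kb, with 78.1, 83.0 and 70.9 CPM in WT libraries and 76.1, 78.9 and 72.3 in KO against 1.78, 1.73 and 1.49 and 1.74, 1.30 and 1.46 for Srcap. 1700029B22Rik was 127-fold above Fgfr2, a fibroblast growth factor receptor gene, with 36.3, 30.5 and 38.6 CPM in WT libraries and 40.2, 36.0 and 39.3 in KO. In that pair the deposited Fgfr2 span, chr7:130162451-133123350, is long, and the exons do not overlap.

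At the other end, Tnp1 was 13.4-fold above 1700027A15Rik per kb, with 728, 674 and 842 CPM in WT libraries and 875, 517 and 796 in KO. The coding gene at 580.0 CPM opposite Gm45604 was Slc16a7, a monocarboxylate transporter, and that at 546 CPM opposite 4930513N10Rik was Cnot1, the scaffold of the CCR4-NOT deadenylase. Eif4g3, a translation initiation factor, had 478 CPM opposite 1700095J12Rik. Hdgfl1 was 25.3-fold above 4921520N01Rik per kb, and D1Pas1 28.4-fold above Gm37912. Abundant antisense genes stood opposite coding genes at 0 counts and opposite coding genes far more abundant than themselves.

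**Figure D3:**
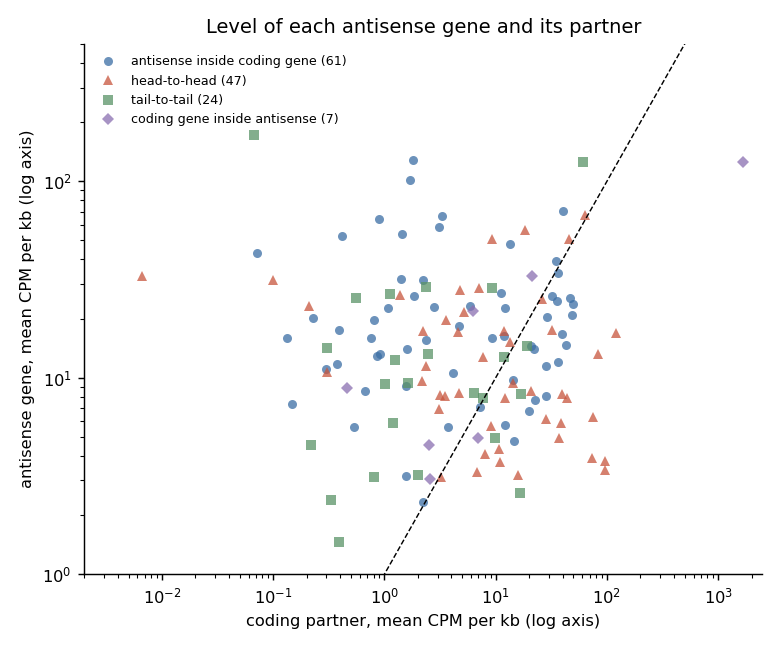
Mean CPM per kb of each antisense gene (y axis, log) against that of its coding partner (x axis, log) for the 139 pairs whose partner had a count, by layout; the dashed line marks equal levels. Points above the line are the pairs in which the antisense gene was the higher, and the point far right is Tnp1 with 1700027A15Rik.

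In KO against WT, 0 of the 140 antisense genes were called by edgeR's quasi-likelihood test (Benjamini-Hochberg adjusted p under 0.05 over all 19320 genes tested), where 0.00518% of all genes were called, the knocked-out gene alone. All 140 passed the low-count filter. At an unadjusted p under 0.05 there were 8 (5.71%), against 4.63% of all genes. Of these, 7 (5.0%) were higher in KO against 2.41% of all genes, and 1 was lower against 2.22%. DESeq2 also called 0, with 8 at an unadjusted p under 0.05. In edgeR that count moved with single libraries. It was 4 without KO 3, 5 without WT 3, 14 without KO 2 and 7 to 9 without any other library. Over all genes the count also moved, from 894 of 19320 to 490 of 19754 without KO 3 and 1444 of 19678 without KO 2. Without WT 3 it was 863 of 19786 over all genes. Fold changes were small. The log2 fold changes ran from −0.27 to 0.46 with a median of 0.031, against −0.0025 over all genes, and 84 of 140 were above 0. The 95% intervals of all 140 lay within 2-fold in either direction, and those of 130 within 1.5-fold. Over all genes these were 16335 and 11892 of 19320. The limit of 10 CPM leaves out genes of low counts, and the median SE was 0.129 against 0.156 over all genes. WT and KO values did not overlap for 13 genes (9.29%), against 9.32% of all genes. Of the 13, 9 were higher in KO, against 906 of 1800 over all genes. The adjusted p of the 140 genes was 0.965 or more, which does not show that the genotypes are alike within those intervals.

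**Figure D4:**
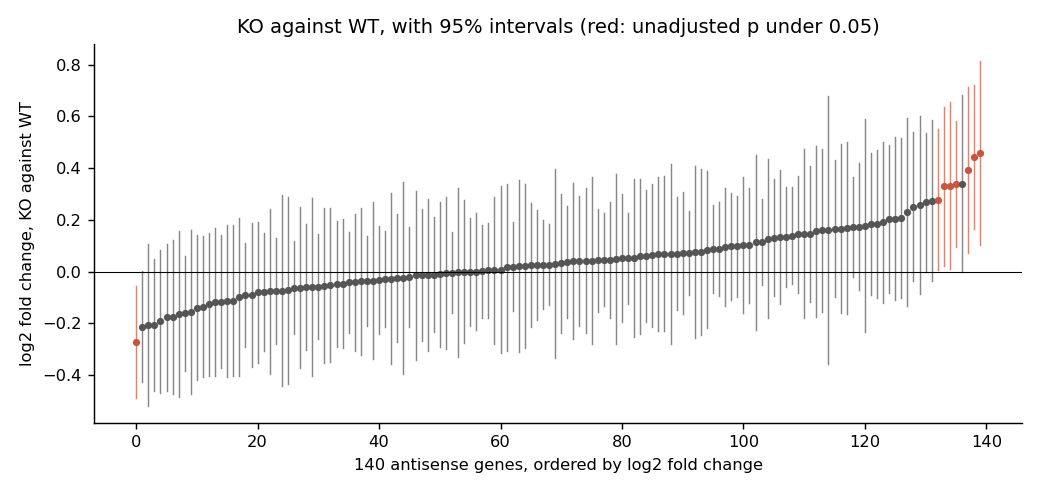
Log2 fold change in KO against WT (y axis) of the 140 antisense genes in order of fold change (x axis), with 95% intervals from the edgeR fit; red marks an unadjusted p under 0.05. Every interval lies between −1 and 1, and 8 genes are red, 7 of them above 0.

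Among genes higher in KO, the smallest p was that of Gm15813, in an intron of the actin-regulator gene Phactr1. It had 11.8, 12.1 and 12.3 CPM in WT libraries and 16.4, 14.6 and 18.2 in KO, or 12.1 ± 0.237 CPM in WT libraries and 16.4 ± 1.80 CPM in KO (SD, n = 3), so the groups did not overlap. Its log2 fold change was 0.44 ± 0.129 (SE) with a 95% interval of 0.17 to 0.72 (edgeR, unadjusted p = 0.00402, adjusted p = 0.965). Aknaos, inside the gene of the microtubule-organising protein Akna, had 20.9, 21.6 and 23.9 CPM in WT libraries and 31.0, 24.8 and 28.2 in KO, with no overlap and a log2 fold change of 0.34 ± 0.114 (SE) (edgeR, unadjusted p = 0.00951, adjusted p = 0.965). Gm7568, in an intron of Stau2, a binder of double-stranded RNA, had 12.4, 9.14 and 12.2 CPM in WT libraries and 16.8, 12.1 and 17.4 in KO. The lowest KO library there was within the WT range, and the log2 fold change was 0.46 ± 0.166 (SE) (edgeR, unadjusted p = 0.0155). Gm45025, in an intron of the transcription factor gene Sox6, had 14.4, 15.5 and 14.2 CPM in WT libraries and 18.3, 15.7 and 24.1 in KO. Its KO values were all higher, 1 of them by little, and the log2 fold change was 0.39 ± 0.150 (SE) (edgeR, unadjusted p = 0.0198). Without KO 3 it was 0.20 (unadjusted p = 0.175). For 4921520N01Rik, head-to-head with Hdgfl1, the values were 13.3, 10.03 and 10.2 CPM in WT libraries and 14.2, 14.8 and 13.1 in KO, with overlap, and the log2 fold change was 0.33 ± 0.144 (SE) (edgeR, unadjusted p = 0.0379). None of these 5 passed the adjusted threshold, and only Gm15813 kept an unadjusted p under 0.05 with each library left out in turn.

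Among genes lower in KO, 1700027A15Rik alone had an unadjusted p under 0.05. Its means were 192 ± 24.0 CPM in WT libraries and 159 ± 17.96 CPM in KO (SD, n = 3). The highest KO library, KO 1, lay above the lowest WT library, WT 3. The log2 fold change was −0.27 ± 0.101 (SE) with a 95% interval of −0.49 to −0.057 (edgeR, unadjusted p = 0.0168, adjusted p = 0.965). The p-value rested on WT 1, the highest WT library, and KO 2, the lowest KO library, the pair that also stood apart from the rest over all genes. The log2 fold change was −0.17 without WT 1 (edgeR, unadjusted p = 0.106), −0.19 without KO 2 (unadjusted p = 0.0766) and −0.087 without both (unadjusted p = 0.35). Tnp1, within its span, had a log2 fold change of −0.036 ± 0.142 (SE), and its lowest library was KO 2, as for the antisense gene. Itpr3os, over exons of the calcium-channel gene Itpr3, had 41.1, 47.0 and 50.2 CPM in WT libraries and 42.3, 37.0 and 40.1 in KO and a log2 fold change of −0.21 ± 0.1003 (SE). Gm49077, head-to-head with Azin1, a regulator of polyamine synthesis, had 22.9, 24.5 and 22.7 in WT and 23.0, 17.6 and 20.1 in KO. For 1700095B10Rik, over exons of the myosin gene Myo18b, the values were 35.3, 34.4 and 31.9 in WT and 29.7, 27.5 and 33.7 in KO. In these 3 the groups overlapped, by 1 KO library each. 1700016K05Rik, in an intron of the receptor phosphatase gene Ptprm, had 12.8, 12.5 and 14.04 in WT and 12.0, 11.5 and 10.9 in KO, without overlap, at an unadjusted p of 0.160 (edgeR).

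Of the 140 coding partners, 134 passed the low-count filter and 0 were called in the same fit, against 0.00518% of all genes. An unadjusted p under 0.05 was found for 6 (4.48%, against 4.63%), and WT and KO did not overlap for 18 (13.4%, against 9.32%). Of those 18, 13 were higher in KO and 5 lower, against 906 and 894 of 1800 over all genes. Their median log2 fold change was 0.0070, and the intervals of 126 of the 134 lay within 2-fold, against 16335 of 19320 over all genes. The 6 at an unadjusted p under 0.05 became 12 without WT 1, 11 without KO 2, 2 without KO 3 and 4 or 5 without any other library. Over all genes there were 1411 of 19752 without WT 1, 1444 of 19678 without KO 2 and 490 of 19754 without KO 3. Fgfr1, a fibroblast growth factor receptor, had 12.9, 13.8 and 10.5 CPM in WT libraries and 7.37, 10.3 and 8.25 in KO, a log2 fold change of −0.52 ± 0.164 (SE) with no overlap (edgeR, unadjusted p = 0.00654, adjusted p = 0.965). The adrenoceptor gene Adra1d, opposite Gm14285, had 2.33, 2.17 and 2.04 CPM in WT libraries and 2.93, 2.89 and 3.48 in KO. In 79 of the 135 pairs with both genes tested, the antisense gene and its partner had the same sign of change, and across pairs the log2 fold changes had a Spearman rho of 0.11, given as a description since all pairs share the 6 libraries. No pair had opposite signs with an unadjusted p under 0.05 in each gene.

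The ratio of antisense to partner counts within a library, in which library size cancels apart from the added pseudocount, was compared with limma as log2 of (antisense count + 2)/(partner count + 2) over all 750 antisense and coding pairs that passed the filter. Of the 135 pairs of abundant antisense genes 0 were called, against 0.0% of all 750 pairs. At an unadjusted p under 0.05 there were 6 (4.44%, against 5.47%), and adjusted p ran from 0.718 to 0.996. The median change in KO was 0.037, against 0.052 over all pairs, and intervals of 126 lay within 2-fold. The 6 at an unadjusted p under 0.05 became 17 without KO 2, 11 without WT 3, 3 without WT 2 and 2 without KO 3. Over all fitted pairs there were 61 of 788, 37 of 796, 36 of 784 and 27 of 787 in the same order. With the fit limited to pairs with overlapping exons there were 9 of 89, against 31 of 478 over all such pairs. The smallest p was that of Gm16159 and Fgfr1, with log2 ratios of 0.95, 1.14 and 1.21 in WT and 1.79, 1.39 and 1.55 in KO and no overlap. The change was 0.48 ± 0.189 (SE) (limma, unadjusted p = 0.0148, adjusted p = 0.718), while Gm16159 itself had a log2 fold change of −0.047. 4921520N01Rik and Hdgfl1 had log2 ratios of −3.90, −4.30 and −4.19 in WT and −3.71, −3.69 and −3.72 in KO, a change of 0.42 ± 0.179 (SE), again without overlap. Gm11149 and the adhesion-molecule gene Ncam1 had −0.97, −0.41 and −0.62 in WT and −0.40, −0.26 and 0.01 in KO, without overlap but with KO 1 close to WT 2. Aknaos and Akna had −1.76, −1.56 and −1.65 in WT and −1.26, −1.48 and −1.25 in KO, without overlap, and Gm21284 and the deubiquitinase gene Stambp had −2.47, −2.91 and −2.50 and −2.05, −2.65 and −2.11, with overlap.

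Lower ratios in KO were found for Gm49077 and Azin1, with −1.69, −1.54 and −1.49 in WT and −1.70, −2.13 and −2.02 in KO, a change of −0.37 ± 0.158 (SE) (limma, unadjusted p = 0.0226, adjusted p = 0.718). KO values were all lower, KO 1 by little. 1700095B10Rik and Myo18b had −0.72, −0.55 and −1.15 in WT and −1.31, −0.97 and −1.13 in KO, with overlap. Gm14285 and Adra1d had 1.82, 2.10 and 2.59 and 1.92, 1.58 and 1.37, with overlap, and Gm17202 and the phospholipid acyltransferase gene Lpcat2b had −3.99, −3.97 and −4.10 and −4.16, −4.66 and −4.30, without it. For 1700027A15Rik and Tnp1 the log2 ratios were −1.74, −1.86 and −2.29 in WT and −2.31, −1.88 and −2.33 in KO, a change of −0.21 ± 0.112 (SE) (limma, unadjusted p = 0.0707, adjusted p = 0.830). WT 3, KO 1 and KO 3 were low and the other three high, so the split did not follow genotype.

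**Figure D5:**
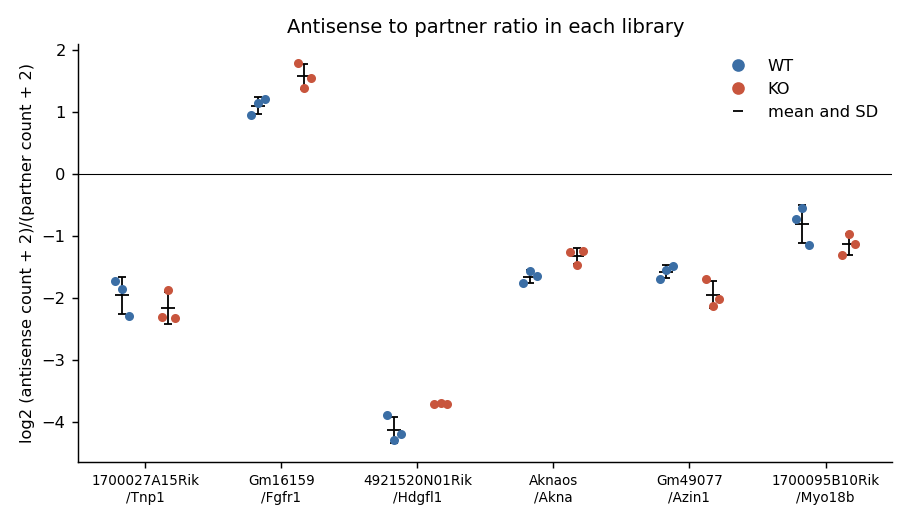
Log2 of (antisense count + 2)/(partner count + 2) (y axis) in each WT and KO library (points, with mean and SD of 3) for 6 pairs (x axis). For 4921520N01Rik and Hdgfl1 the KO values, −3.72 to −3.69, lay above the WT values, −4.30 to −3.90, and for 1700027A15Rik and Tnp1 the groups overlapped; 0 of the pairs passed the adjusted threshold.

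Genes that handle antisense RNA were read in lists chosen by function. Over all genes 0.00518% were called, 2.22% were lower and 2.41% higher at an unadjusted p under 0.05, and the median log2 fold change was −0.0025. Of 31 genes for double-stranded RNA handling, among them the RNA editors, Dicer and the cytosolic sensors, 29 were tested and 0 called. By the unadjusted p 1 of the 29 was lower and 0 were higher, and the median log2 fold change was −0.044. The gene that was lower was Adarb1, an adenosine deaminase that edits duplex RNA, with 17.3, 17.3 and 17.8 CPM in WT libraries and 14.9, 14.7 and 11.8 in KO. Its log2 fold change was −0.34 ± 0.128 (SE) (edgeR, unadjusted p = 0.0186, adjusted p = 0.965). Of 24 genes for nuclear RNA decay and cleavage, such as the exosome subunits, 22 were tested and 0 were called. None had an unadjusted p under 0.05, against 4.63% of all genes, and the median was −0.0035.

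WT 1 and KO 2 stood apart from the other libraries on the main axis of variation, a principal component with 26.6% of the variance (scores of −22.8 and −30.2, against 6.98 to 17.5). Leydig cell markers, whose list has 10 genes, summed to 441 CPM in WT 1 and 476 in KO 2 against 701 to 1156 in the rest. Most of that gap was Cyp17a1 and Cyp11a1. Cyp17a1 had 21.14 CPM in WT 1 and 65.13 in KO 2, against 144.8 to 358.2 in the rest. Cyp11a1 had 14.04 and 22.92, against 83.27 to 182.7. WT 1 and KO 2 were also the 2 lowest libraries for Hsd3b1, Nr5a1, Hsd17b3 and Lhcgr. They were not for Fabp3, Hsd3b6, Star and Insl3. The part of the Leydig cell markers in the results was not tested. For the antisense genes, WT 1 and KO 2 were the 2 lowest libraries for 16 of 140 (11.4%, against 10.8% of all genes) and the 2 highest for 16 (11.4%, against 12.5%). The median deviation of the 140 genes from their own mean (log2) was 0.024 in WT 1, −0.010 in WT 2 and −0.064 in WT 3. In KO 1 to KO 3 it was 0.057, −0.046 and 0.022. Neither genotype stood on 1 side over all libraries, but that rested on WT 1 and KO 2. Of the rest, WT 2 and WT 3 were below 0 and KO 1 and KO 3 above 0. By this median deviation WT 1 was the highest WT library and KO 2 the lowest KO library. Leaving out both, a choice made after the data were seen, therefore moves the 140 genes up in KO. The values without them are a description and no separate support for a difference. The median log2 fold change of the 140 genes without WT 1 and KO 2 was 0.086, against −0.00061 over all genes. Without WT 1 and KO 2, 0 of the 140 were called (smallest adjusted p 0.231, edgeR), against 0.0463% of all genes. An unadjusted p under 0.05 was then found for 17 (12.1%, against 8.51%), 16 of them higher in KO. The share higher in KO over all genes was not counted in this setting. Of the 17, 6 were among the 8 found with all libraries. Marker lists of other cell types were read beside these values, in the fit with all libraries. Over all genes in that fit 2.22% were lower at an unadjusted p under 0.05, 0.00518% were called and the median log2 fold change was −0.0025. The macrophage list had a median log2 fold change of −0.35 with 4 of 10 lower at an unadjusted p under 0.05 and 0 called, and sums of 325 to 401 CPM in WT and 284 to 396 in KO. Most of each sum was Aif1, at 200 to 311 CPM per library, the only gene of that list with a log2 fold change above 0 (0.069). Leydig cell markers had a median of −0.30 with 1 of 10 lower at an unadjusted p under 0.05 and 0 called. That gene was Insl3, a Leydig cell hormone gene, with 78.8, 83.8 and 82.6 CPM in WT libraries and 55.6, 17.4 and 54.99 in KO (log2 fold change −0.94 ± 0.273, SE; edgeR, unadjusted p = 0.0039, adjusted p = 0.965). Of 6 blood markers 3 were tested, with a median of −0.46, 1 lower at an unadjusted p under 0.05 and 0 called, and sums of 27.5 to 43.9 CPM in WT libraries and 16.8 to 32.1 in KO. Spermatogonia markers had a median of −0.15 with 2 of 10 lower at an unadjusted p under 0.05, and Sertoli cell markers −0.054 with 0 of 10. Spermatocyte markers had a median of 0.015 and spermatid markers 0.011, with 0 of 10 at an unadjusted p under 0.05 in each list. The part of cell composition in the antisense values was not tested.

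RefSeq promoter windows of 300 bases (250 before to 50 after a start) were found for 82 of the antisense genes and 110 of the partners, and 57 antisense windows started within 100 bases of the deposited start. The palindrome TGACGTCA, which reads the same on both strands and is the known site of the CREB and CREM factors, of which CREM is a regulator of spermatid genes, was in 3 of these 57 (5.26%), those of 4930525G20Rik, 4933417D19Rik and Sox5os3, against 1.79% of all 32851 windows. TATAAA on either strand was in 8 (14.04%, against 13.6%). The 2 motifs do not overlap in sequence. The windows held a median of 6 CG dinucleotides, against 7 in all windows. These matches describe the letters of the windows and were not set against the counts.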

How the data were processed

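RNA of whole testis was sequenced in 6 libraries, 3 WT and 3 KO. Extraction was with TRIzol and the library kit was a VAHTS mRNA-seq kit, per the labels' protocols. The submitters' processing notes name HISAT2 2.0.0 and the mm10 build. The authors deposited unnormalized counts for each gene with coordinates, length and biotype, per the file headers. The sources used here name no counting tool, annotation release or strand setting. Genotype and replicate number in the column names matched columns to samples.

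The antisense genes, partner rule and gene lists were chosen with earlier results of these data known. Genotypes were compared with edgeR 4.0.16 (filterByExpr with minimum count 10, TMM, quasi-likelihood test, all 6 libraries, no covariate, Benjamini-Hochberg adjustment over 19320 genes) in R 4.3.3. Ratios were fitted with limma 3.58.1 (moderated, with trend; pseudocount of 2 counts). Each test was tested on simulated data. Exons came from GENCODE M21 and promoter windows from RefSeq (GRCm38.p6). Values in every library were given for the 10 genes of highest mean, the 5 per direction with the smallest p, the 5 with the highest ratio to a partner and the 5 pairs per direction with the smallest ratio p; other genes were named after their values were seen.

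Alternatives were DESeq2 1.42.0, DESeq2 size factors or library size alone, no low-count filter, a replicate block, leaving out each library, other CPM limits and pseudocounts, and pairs with overlapping exons. Leaving out WT 1 and KO 2 together, and lengths without shared bases, were added after the data were seen. Counts differed between every pair of libraries by more than sampling noise (chi-square per degree of freedom of 4.31 or more), so all 6 were kept as separate samples.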

Additional observations from a re-analysis of the deposited data

How the results depend on the processing

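Among the antisense genes 0 were called under every setting run, as were 0 of their coding partners and 0 of their pair ratios. Over all genes, 1 was called with all libraries, 50 with no low-count filter, 2 by DESeq2, 1 to 3 with each library left out and 9 without WT 1 and KO 2. Of all 750 pair ratios 0 were called, 0 to 2 with each library left out (1 without WT 2, 2 without KO 2) and 2 without WT 1 and KO 2; the cause was not tested. The median log2 fold change of the antisense genes, 0.031, was 0.018 to 0.034 under other scalings, −0.0087 to 0.060 with a library left out (below 0 without KO 1 only) and 0.086 without WT 1 and KO 2. The share of pairs with the antisense gene above its partner per kb, 65.2%, was 63.8% to 66.0% with a library left out, 44.0% in counts without length, which removes the division by gene length, and 77.9% for the 68 pairs of at least 20 CPM.

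Among the named genes and pairs, 3 genes with fold changes near 0 changed sign under a setting. With each library left out, Wbscr25 ran from −0.054 to 0.046 (above 0 without WT 1 and, at 0.013, without KO 1), and it was 0.031 without WT 1 and KO 2. Gm11837 ran from −0.031 to 0.078 (below 0 without WT 3 and, at −0.014, without KO 1) and Gm42918 from −0.029 to 0.069 (below 0 without WT 3 and, at −0.0050, without KO 1). Same-numbered WT and KO libraries did not deviate together (correlations of −0.173, −0.029 and 0.114), so the numbers were not taken as pairs. With the replicate block 1 gene was called over all genes, 0 antisense genes, 0 partners, 0 machinery genes and 0 ratios, and the median log2 fold change was 0.031. At this depth and spread, 10 of the 140 intervals reached beyond 1.5-fold.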
